A study of Mus musculus with 7 samples.

Results

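The effect of carrying a Cre allele at Nkx2-5, as opposed to carrying unrecombined floxed Hand1, was read from 5 of the 7 libraries of a study of Hand1 loss in the mouse heart at E11.5. The Cre carriers (genotype label Nkx Cre +/-; wt, 3 libraries) had 1 Cre allele and wild-type Hand1. The flox controls (Nkx Cre wt; H1flox/flox, 2 libraries) had no Cre and 2 floxed Hand1 alleles. Hand1 was therefore intact in both groups, and neither group is a wild type without an engineered allele. Hand1 knockout ventricles (Nkx Cre +/-; H1flox/flox, 2 libraries), which carry both alleles, entered no test here, and their values are given only where they are set beside the control groups. All embryos were of mixed background, and ventricles were dissected without sorting, kept in RNA-later and used for polyadenylated RNA. The groups differ at once by the Cre allele, by the floxed Hand1 alleles and by whatever background the crosses brought along, and the effects of these cannot be told apart in this design. The labels give each library its own identifier and say nothing of litters, so each p-value reflects the scatter among these 5 libraries and may be partly technical.

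Nkx2-5 encodes a homeodomain transcription factor that is among the earliest markers of cardiac progenitors and stays on in heart muscle cells. Cre placed at its locus recombines floxed genes in the myocardium and in part of the endocardial, pharyngeal and other descendants of cells that once used the locus. The labels do not say whether the Cre allele still makes Nkx2-5 protein. Hand1 encodes a basic helix-loop-helix factor of the outer curvature of the left ventricle, and its relative Hand2 prevails in the right ventricle and outflow tract. loxP sites in a floxed allele are placed so that the gene works until Cre acts, and control groups of this kind are used to see whether either allele has an effect alone.

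Promoters are shown for the gene that holds the Cre allele and for 3 genes whose levels separated the control groups. They are windows of 300 bases, mostly upstream of the annotated start, from RefSeq on build GRCm38.p6, and all 4 lie on the minus strand and are printed 5′ to 3′ along the gene. Capitals mark either TNAAGTG, a motif bound by Nkx2-5, or CATCTG, an E-box bound by Hand and E-protein pairs, searched on both strands. The Nkx2-5 window is chr17:26841516-26841815, that of Trim12a chr7:104315446-104315745, that of Lyz2 chr10:117282223-117282522 and that of Tnnt1 chr7:4515926-4516225.
Nkx2-5: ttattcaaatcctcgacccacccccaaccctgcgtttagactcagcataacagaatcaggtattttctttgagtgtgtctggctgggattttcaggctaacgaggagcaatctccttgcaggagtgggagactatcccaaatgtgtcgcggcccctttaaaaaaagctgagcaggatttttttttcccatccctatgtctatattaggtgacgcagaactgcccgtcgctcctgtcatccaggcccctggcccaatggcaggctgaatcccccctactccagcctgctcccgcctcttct
Trim12a: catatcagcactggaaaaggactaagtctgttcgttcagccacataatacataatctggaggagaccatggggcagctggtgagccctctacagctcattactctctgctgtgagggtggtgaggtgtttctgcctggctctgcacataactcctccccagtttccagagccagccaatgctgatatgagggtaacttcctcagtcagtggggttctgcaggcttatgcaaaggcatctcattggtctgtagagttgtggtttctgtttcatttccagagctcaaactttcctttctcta
Lyz2: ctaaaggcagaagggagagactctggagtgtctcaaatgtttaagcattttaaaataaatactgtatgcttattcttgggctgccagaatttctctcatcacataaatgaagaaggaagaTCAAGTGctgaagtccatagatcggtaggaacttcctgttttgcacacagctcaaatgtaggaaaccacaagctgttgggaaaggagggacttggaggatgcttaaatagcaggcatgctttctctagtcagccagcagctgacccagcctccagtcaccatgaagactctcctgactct
Tnnt1: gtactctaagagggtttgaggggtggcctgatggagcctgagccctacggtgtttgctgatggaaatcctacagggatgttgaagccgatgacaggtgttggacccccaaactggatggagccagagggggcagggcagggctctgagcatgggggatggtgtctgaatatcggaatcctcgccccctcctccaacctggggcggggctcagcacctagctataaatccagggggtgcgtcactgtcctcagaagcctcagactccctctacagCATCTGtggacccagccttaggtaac
The windows of Nkx2-5 and Trim12a held neither string, that of Lyz2 held 1 TNAAGTG and that of Tnnt1 held 1 CATCTG. Among the genes described below as called, 7 that were higher in Cre carriers had 8 promoters in the table and 32 that were lower had 39. TNAAGTG occurred in 12.5% of the promoters of higher genes and 10.3% of those of lower genes, against 8.68% for all tested genes. CATCTG also occurred in 12.5% and 10.3%, against 11.6% for all tested genes. These shares rest on 1 and 4 promoters for each motif. Hand1, Cadm1 and Angpt1 have no entry in the table.

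Total counts per library were 25577174 to 28152695 in Cre carriers and 24343222 to 25969446 in flox controls, over 13701 genes. A level of 1 CPM (counts scaled to library size, with TMM factors) rests on few reads, and genes near that level carry counting error of their own. The flox controls stood apart from each other more than the Cre carriers did. On principal component 1 (47.3% of variance) flox control replicate 1 scored 41.5 and the other 4 libraries -21.4 to 4.9. On component 2 (29.5%) flox control replicate 2 scored -31.8, below the rest. By Xist and Y-linked counts, Cre carrier replicate 2 and flox control replicate 2 read as female and the other 3 as male, so each group holds both sexes. Cre carrier replicate 2 still had 1007 reads on 5 Y-linked genes, against 264 in flox control replicate 2 and 5709 to 8685 in the male libraries. Library identifiers begin with 10R or 83 in Cre carriers and with 310 or NT in flox controls. The labels do not say what these prefixes mean, and no prefix spans both groups, so anything tied to them cannot be told apart from the genotype. Both knockout libraries begin with NT, as does flox control replicate 2.

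Both engineered loci were read first. Hand1 (chromosome 11, 57828713 to 57832147, minus strand, mm10) stood at 96.7, 68.0 and 84.4 CPM in Cre carriers, against 35.2 and 48.8 CPM in flox controls. Every Cre carrier lay above both flox controls. The means were 83.0 ± 14.4 CPM (SD, n = 3) and 42 ± 9.60 CPM (SD, n = 2), a log2 difference of 0.98 ± 0.19 (SE), or 1.98-fold, and edgeR's quasi-likelihood test with Benjamini-Hochberg adjustment over 13681 genes gave adjusted p = 0.101. The same difference passed the threshold of 0.05 with DESeq2 (adjusted p = 2.02e-04) and with edgeR when flox control replicate 2 was left out (log2 1.24, adjusted p = 0.0049), a fit that called 4122 genes. With any other library left out it did not pass, at log2 0.76 to 1.11 and edgeR adjusted p of 0.112 to 0.37. In the knockout libraries Hand1 was at 1.29 and 1.14 CPM on a scale set over all 7 libraries.

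Nkx2-5 (chromosome 17, 26838665 to 26841565, minus strand) went the other way. It stood at 99.7, 117 and 91.2 CPM in Cre carriers, against 135 and 165 CPM in flox controls, again without overlap. The means were 103 ± 13.3 CPM (SD, n = 3) and 150 ± 20.7 CPM (SD, n = 2), and the log2 difference was -0.55 ± 0.14 (SE, edgeR adjusted p = 0.188). DESeq2 placed it past the threshold (adjusted p = 0.0316). It also passed edgeR without flox control replicate 1 (log2 -0.68, adjusted p = 0.0354) or replicate 2 (-0.40, adjusted p = 0.0479), and not without any 1 of the Cre carriers (edgeR adjusted p of 0.342 to 0.585). The knockout libraries, which carry the same Cre allele, had 125 and 89.0 CPM. Hand2, the relative of Hand1, stood at 169, 178 and 178 CPM in Cre carriers and 147 and 174 CPM in flox controls, and these overlap (log2 0.12 ± 0.12, edgeR adjusted p = 0.595).

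TMM scaling centres the log ratios, and the median log2 difference over all genes was -0.01. Of 13681 genes tested, edgeR called 56 at an adjusted p below 0.05, which is 0.409% of them. Higher in Cre carriers were 14 (0.102%) and lower were 42 (0.307%). At an unadjusted p under 0.05 there were 774 higher (5.66%) and 1371 lower (10.0%) genes. All Cre carriers lay above both flox controls at 16.4% of genes and below both at 17.8%. With DESeq2 the count was 395 (2.89%), of which 151 were higher (1.1%) and 244 lower (1.78%). With embryo sex as a covariate in edgeR it was 345 (2.52%), of which 91 were higher (0.665%) and 254 lower (1.86%). Both sets include all 56.

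The number of calls rested on single libraries. Without Cre carrier replicate 1 or 3 edgeR called 0 genes, with 1074 and 1628 at an unadjusted p under 0.05. Without Cre carrier replicate 2 it called 4, namely Lyz2, Hist3h2a, Rpl14-ps1 and Trim12a. Without flox control replicate 1 or 2 it called 237 and 4122, where the remaining flox control is assumed to vary as the Cre carriers do. With all 7 libraries in 1 model it called 0 genes, with 428 at an unadjusted p under 0.05. The direction of each of the 56 was the same in every one of the 18 alternative fits that tested it, Cel being tested in 17, and no called gene moved by more than 1.5-fold when any 1 library was left out. At all 56 the groups do not overlap, and every fit reuses these libraries, so a constant direction was largely fixed in advance. Calls also favour genes of small scatter, so the small movement is no independent evidence. limma-voom called 43 genes, 42 of them shared, and lost Sparcl1, Ankrd63, Aldh4a1, Grhl3, Myrip, Epb4.1l4a, Prdm6, Acan, Myo7a, Gprin3, Gm7120, Apold1, Chrm2 and Tesc at adjusted p of 0.0535 to 0.0702. Many genes named below were taken by a rule on size of change and list membership. Outside it, 21 called genes were named after their values were seen. Genes that were not called, among them Hopx, Gja1, Isl1, Myh11, Sox10 and Acta1, were also named outside the rule with their values known. Some genes that the rule names are not described.

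**Figure D1:**
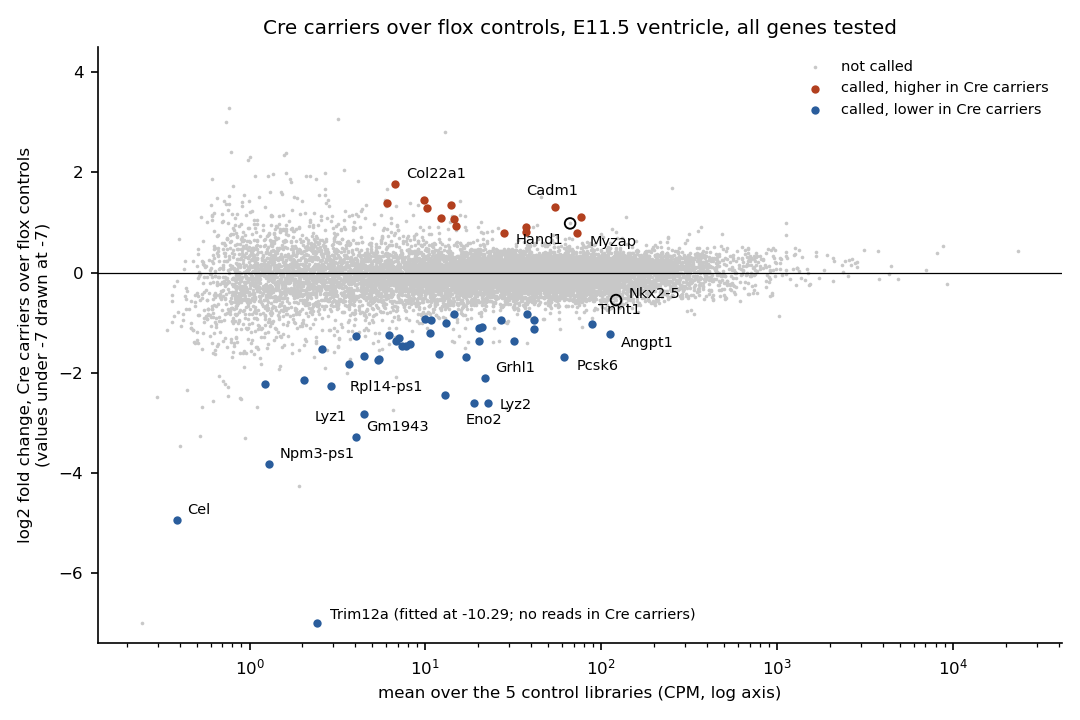
Each point is 1 of 13681 genes, with its mean over the 5 control libraries (CPM, log axis) against its log2 fold change, Cre carriers over flox controls. The 14 genes called higher lie between 0.78 and 1.76, the 42 called lower reach from -0.82 down to the genes with almost no reads in Cre carriers, and open circles mark Hand1 and Nkx2-5, which were not called.

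Trim12a, Lyz1, Lyz2, Samd9l, Aim2 and Gimap4, genes with immune or interferon-related roles, fell in Cre carriers. This grouping and the ones by role that follow were made after the calls were known, and 42 of all 56 calls were lower. Trim12a, a tripartite-motif gene of a mouse antiviral family (chromosome 7, 104299897 to 104315495), had 0 reads in all 3 Cre carriers, against 7.12 and 4.99 CPM in flox controls. Set against a floor of 3 counts over the group, it was at least 159-fold lower in Cre carriers (edgeR adjusted p = 0.00922). Its neighbours in the family overlapped between groups or did not pass. Trim12c stood at 21.1, 18.4 and 25.3 CPM in Cre carriers and 28.8 and 23.6 CPM in flox controls, and Trim34a at 0.431, 0.844 and 0.771 CPM against 2.58 and 2.69 CPM (log2 -1.93 ± 0.32, edgeR adjusted p = 0.072). These genes resemble each other in sequence, and how the counting split shared reads is not stated. Ifi202b, another interferon-inducible gene, likewise had 0 reads in all Cre carriers, against 0.604 and 0.614 CPM in flox controls (at least 16-fold lower, edgeR adjusted p = 0.0834). Trim12a was at 2.83 and 6.57 CPM in the knockout libraries, which carry the Cre allele (scale of all 7 libraries).

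Both lysozyme genes were lower. Lyz2, the lysozyme of macrophages, stood at 8.12, 8.33 and 5.90 CPM in Cre carriers, against 52.6 and 38.1 CPM in flox controls (log2 -2.60 ± 0.19, 6.07-fold, edgeR adjusted p = 0.00856). Its close copy Lyz1 next to it on chromosome 10, whose reads may be shared with Lyz2, stood at 1.18, 1.58 and 1.16 CPM against 11 and 7.56 CPM (log2 -2.83 ± 0.24, edgeR adjusted p = 0.00856). Other macrophage genes did not pass the test. Csf1r, the receptor that macrophages need for survival, stood at 6.51, 5.87 and 6.29 CPM in Cre carriers and 5.31 and 5.41 CPM in flox controls (log2 0.21, edgeR adjusted p = 0.475). Mrc1, the mannose receptor, had 2.55, 2.28 and 3.39 CPM against 5.51 and 5.83 CPM (log2 -1.05, edgeR adjusted p = 0.116). Of 11 macrophage markers tested, Lyz2 alone was called, and the summed level of the list was 28.3 to 33.5 CPM in Cre carriers and 63.1 to 76.2 CPM in flox controls, with a median log2 difference of 0.07. Without Lyz2 the other 10 summed to 20.4, 20 and 27.6 CPM in Cre carriers and 23.7 and 25.1 CPM in flox controls, which overlap. In these unsorted ventricles fewer cells of a type and less RNA per cell cannot be told apart. Aim2, a sensor of DNA in the cytoplasm, stood at 4.75, 3.49 and 4.70 CPM in Cre carriers and 10.9 and 13.0 CPM in flox controls (log2 -1.47). Samd9l, an interferon-inducible antiviral gene, and Gimap4, a GTPase of lymphocytes, had log2 differences of -1.67 and -0.92.

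Ion channel, receptor and neuronal genes supplied 8 calls, all lower in Cre carriers. Among them were 2 genes of the muscarinic pathway that slows the heart, in which acetylcholine acts on the M2 receptor and opens an inward-rectifier potassium channel. Kcnj3, a subunit of that channel, stood at 18.7, 20.1 and 19.7 CPM in Cre carriers, against 40.7 and 34.8 CPM in flox controls (log2 -0.95 ± 0.11, edgeR adjusted p = 0.0238). Chrm2, the M2 receptor, stood at 3.69, 4.48 and 4.32 CPM against 12.6 and 8.94 CPM (log2 -1.37 ± 0.19, edgeR adjusted p = 0.044). Kcnj5, the partner subunit of the same channel, was not called, at 157, 156 and 153 CPM in Cre carriers and 130 and 147 CPM in flox controls (log2 0.16 ± 0.11, edgeR adjusted p = 0.452). Exons of Chrm2 overlap those of 9330158H04Rik on the opposite strand, and strand use in the counting is not stated. Rgs8, which speeds the switching-off of G proteins, stood at 1.96, 1.84 and 1.66 CPM in Cre carriers and 7.12 and 5.72 CPM in flox controls (log2 -1.82 ± 0.20). Pirt, a regulator of sensory ion channels, and Slitrk5, a membrane protein of neurons, had log2 differences of -1.36 and -1.12. Ankrd63 and Gprin3 had -2.26 and -1.53. No group of libraries overlapped at any of the 8 genes. Of 29 genes on a list of ion channels and calcium handling, Kcnj3 was the 1 called, and the list's median was -0.02.

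**Figure D2:**
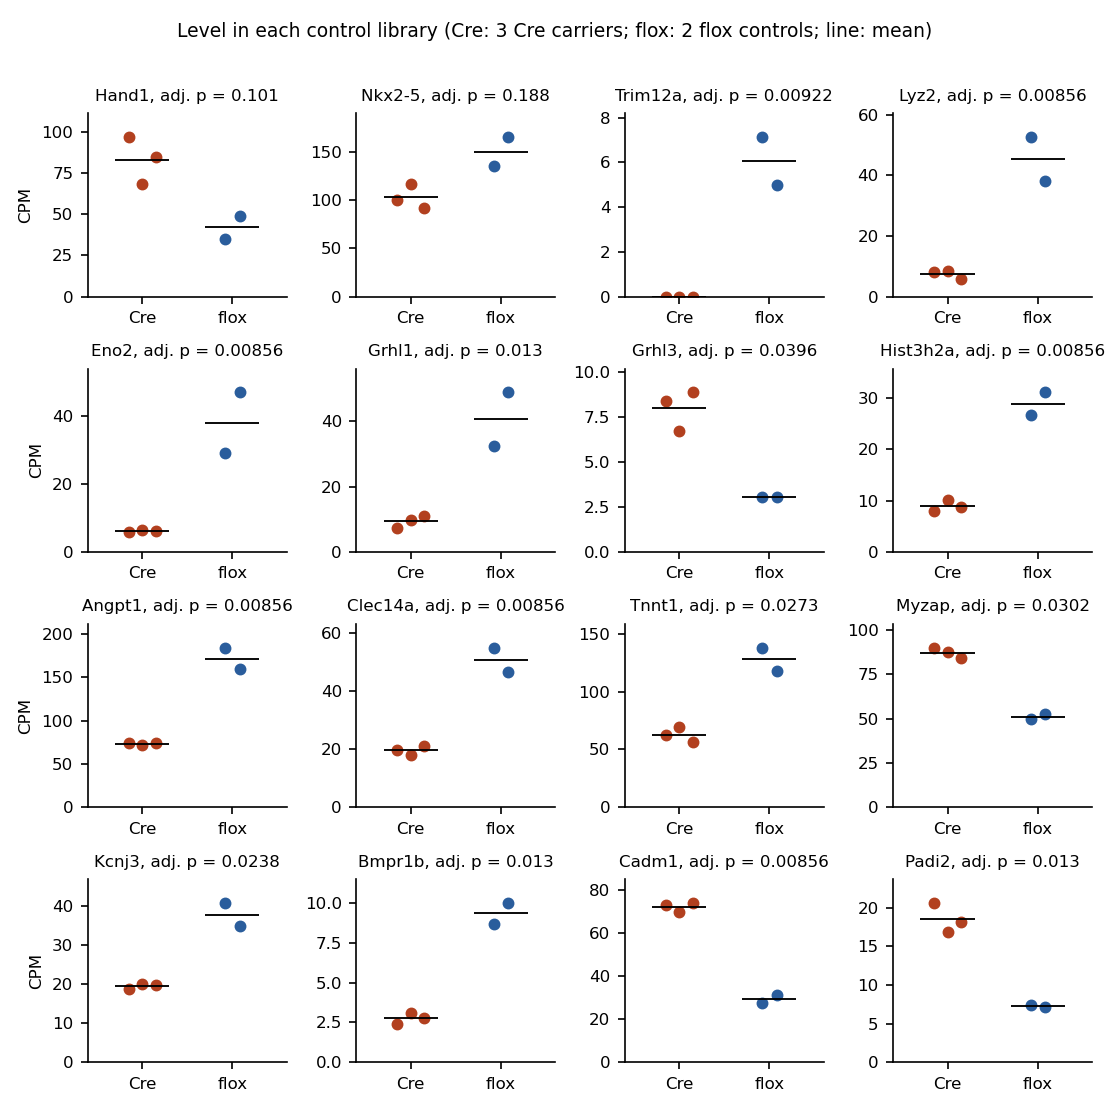
Level (CPM, linear axis from 0) of 16 genes in each of the 3 Cre carriers (left in each panel) and 2 flox controls (right), with a line at each group mean and the edgeR adjusted p above each panel. The groups do not overlap in any panel, and Trim12a lies at 0 in all Cre carriers while Hand1 and Nkx2-5 miss the threshold.

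Genes of secreted and cell surface proteins, vascular ones among them, made up 12 calls, 9 lower and 3 higher. Angpt1, the angiopoietin that heart muscle sends to the Tie2 receptor of the endocardium, stood at 73.8, 71.6 and 73.6 CPM in Cre carriers, against 184 and 159 CPM in flox controls. The difference was -1.23 ± 0.10 on the log2 scale, or 2.35-fold (edgeR adjusted p = 0.00856). Clec14a, a lectin of endothelial cells, stood at 19.6, 18.1 and 21.2 CPM against 55.0 and 46.6 CPM (log2 -1.37 ± 0.12, edgeR adjusted p = 0.00856). Apold1, an early-response gene of endothelium, stood at 10.6, 11.9 and 11 CPM against 18.8 and 20.7 CPM (log2 -0.82 ± 0.12). A list of 16 endocardial and endothelial markers does not hold Angpt1, Clec14a or Apold1. None of the 16 was called, and their median was -0.13. Their summed level was 1990 to 2190 CPM in Cre carriers and 2120 to 2470 CPM in flox controls. Bmpr1b, a type I receptor for bone morphogenetic proteins, stood at 2.43, 3.12 and 2.78 CPM in Cre carriers and 8.69 and 9.97 CPM in flox controls (log2 -1.75 ± 0.18, edgeR adjusted p = 0.013). Pcsk6, a convertase that cleaves precursors of the TGF-beta family, stood at 29.5, 41.8 and 25.7 CPM against 87.2 and 122 CPM (log2 -1.69 ± 0.22, edgeR adjusted p = 0.0356). The other lower genes were Nt5e, the ectoenzyme CD73 that makes adenosine (-1.2), Dpp4, a surface peptidase (-0.83), Plxdc2, a membrane protein (-1.08), and Acan, the proteoglycan aggrecan (-2.22).

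Higher in Cre carriers were 3 genes of adhesion and matrix. Cadm1, an adhesion molecule of the immunoglobulin family (chromosome 9, 47530352 to 47853385), stood at 72.8, 69.5 and 73.8 CPM in Cre carriers, against 27.4 and 31.3 CPM in flox controls (log2 1.3 ± 0.11, 2.45-fold, edgeR adjusted p = 0.00856). Col22a1, a collagen of tissue junctions, stood at 10.9, 9.54 and 7.79 CPM against 3.18 and 2.38 CPM (log2 1.76 ± 0.22, edgeR adjusted p = 0.0302). Col22a1 had the largest fitted rise among the 14 higher genes. Sparcl1, a secreted matrix protein, stood at 35.3, 32.9 and 32.6 CPM against 18.1 and 20.9 CPM (log2 0.79 ± 0.11, edgeR adjusted p = 0.0469), and it lost its call in limma-voom (adjusted p = 0.0547). On a list of 38 extracellular matrix genes, which does not hold these 3 or Acan, none was called, and the median was 0.22. At an unadjusted p under 0.05, 8 were higher and 0 lower, against 5.66% and 10.0% of all genes.

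Sarcomere, junction and cytoskeleton genes went both ways, 5 lower and 3 higher. Tnnt1, slow skeletal troponin T, stood at 62.5, 69.3 and 56.3 CPM in Cre carriers, against 138 and 118 CPM in flox controls (log2 -1.03 ± 0.12, edgeR adjusted p = 0.0273). The cardiac form Tnnt2 was at 3030, 3210 and 2800 CPM against 2540 and 2710 CPM (log2 0.20 ± 0.14, edgeR adjusted p = 0.485). Myzap, a protein of the junctions between heart muscle cells, stood at 90.1, 87.9 and 84.2 CPM in Cre carriers and 49.7 and 52.4 CPM in flox controls (log2 0.78 ± 0.10, edgeR adjusted p = 0.0302). Myo7a, an unconventional myosin, and Myrip, which links that myosin to Rab proteins, were both lower. Myo7a stood at 14.7, 14.1 and 12.9 CPM against 24.8 and 35.0 CPM (log2 -1.10 ± 0.16), and Myrip at 1.02, 0.807 and 0.771 CPM against 2.82 and 4.83 CPM (log2 -2.14 ± 0.31). Both lost the call in limma-voom, at adjusted p = 0.0641 and 0.0702. Fmn1, an actin-nucleating formin, fell by 1.62 on the log2 scale and Tesc, a calcium-binding protein, by 1.00. Vill, a villin-like actin-binding protein, and Epb4.1l4a, of the band 4.1 family, rose by 1.06 and 1.09.

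Of 34 sarcomere genes tested, Tnnt1 was the 1 called, and the median was 0.18. At an unadjusted p under 0.05, 6 were higher and 3 lower, against 5.66% and 10.0% of all genes. Skeletal and smooth actins lay above the flox controls in every Cre carrier without passing the test: Acta1 had 459, 568 and 344 CPM in Cre carriers and 237 and 254 CPM in flox controls (log2 0.90, edgeR adjusted p = 0.162), and Acta2 had 1460, 1550 and 1170 CPM against 583 and 834 CPM (log2 0.98, edgeR adjusted p = 0.127). The main cardiac actin Actc1 overlapped, at 9190, 10600 and 7230 CPM against 5880 and 7850 CPM. Smpx, a small muscle protein, and Nebl, the Z-disc protein nebulette, had log2 differences of -0.82 and -0.79 that came largely from flox control replicate 1, at 592 and 291 CPM against 317 and 142 CPM in flox control replicate 2. Without that library Nebl was at -0.18.

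Transcription and chromatin genes gave 4 calls. A pair of grainyhead-like factors, regulators of epithelia, went in opposite directions. Grhl1 stood at 7.45, 9.73 and 11 CPM in Cre carriers, against 32.4 and 48.9 CPM in flox controls (log2 -2.11 ± 0.22, 4.32-fold, edgeR adjusted p = 0.013). Grhl3 stood at 8.39, 6.72 and 8.87 CPM against 3.06 and 3.07 CPM (log2 1.38 ± 0.19, edgeR adjusted p = 0.0396). Prdm6, a repressor known from smooth muscle, stood at 17.9, 16.8 and 20.5 CPM in Cre carriers and 9.30 and 9.97 CPM in flox controls (log2 0.93 ± 0.14, edgeR adjusted p = 0.0469). Hist3h2a, a gene for histone H2A on the chromosome of Hand1, stood at 8.04, 10.1 and 8.75 CPM in Cre carriers and 26.8 and 31.1 CPM in flox controls (log2 -1.69 ± 0.14, edgeR adjusted p = 0.00856). Its exons overlap those of Trim17 on the same strand, so their reads may be mixed. Corrected for gene length, the call of Hist3h2a was lost (log2 -1.49, adjusted p = 0.0661), and those of Grhl3 and Prdm6 were lost in limma-voom (0.0641 and 0.0637).

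Enzymes and transporters gave 7 calls, 4 lower and 3 higher. Eno2, the gamma enolase of neurons, stood at 5.96, 6.53 and 6.13 CPM in Cre carriers, against 29.0 and 46.8 CPM in flox controls (log2 -2.61 ± 0.20, 6.10-fold, edgeR adjusted p = 0.00856). On a list of 28 glycolysis and hypoxia genes, which does not hold Eno2, none was called, and their median was 0.10. Dio2, which makes active thyroid hormone, had 3.92, 3.89 and 4.16 CPM in Cre carriers and 9.98 and 9.09 CPM in flox controls (log2 -1.25 ± 0.15). Slc7a2, a transporter of cationic amino acids, had a log2 difference of -1.31. Cel, a lipase of pancreatic juice, rested on a mean of 0.0253 CPM in Cre carriers and 0.929 CPM in flox controls. Padi2, which turns arginine into citrulline in proteins, stood at 20.6, 16.9 and 18.2 CPM in Cre carriers and 7.36 and 7.21 CPM in flox controls (log2 1.35 ± 0.14, edgeR adjusted p = 0.013). Aldh4a1, an enzyme of proline breakdown in mitochondria, and Rnpep, an aminopeptidase, had log2 differences of 0.91 and 0.81.

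A pair of intracellular signalling genes rose in Cre carriers. Mapkapk3, a kinase downstream of p38, stood at 13.8, 13.1 and 13.1 CPM in Cre carriers, against 5.88 and 5.06 CPM in flox controls (log2 1.29 ± 0.14, edgeR adjusted p = 0.0171). Ccdc88c, a binding partner of Dishevelled in Wnt signalling, stood at 12.8, 12.9 and 13.6 CPM against 4.55 and 5.10 CPM (log2 1.44 ± 0.14, edgeR adjusted p = 0.0122). A further 8 calls were predicted genes and pseudogenes, and all 8 were lower. Npm3-ps1 stood at 0.196, 0.330 and 0.0771 CPM in Cre carriers and 2.21 and 3.64 CPM in flox controls, and Rpl14-ps1 at 5.02, 4.92 and 4.05 CPM against 29.0 and 21.9 CPM. Reads of such copies can come from the parent genes, so these values are uncertain. The others, Gm1943, 1700048O20Rik, 4933404O12Rik, Gm7120, Gm20554 and C130080G10Rik, had log2 differences between -3.29 and -0.95.

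Genes of heart development were compared as lists, which were drawn up with earlier results of these data known. Of 33 genes associated with Nkx2-5 in the literature none was called, and their median was 0.09. At an unadjusted p under 0.05, 4 were higher and 5 lower, against 5.66% and 10.0% of all genes. The list holds both engineered loci, Hand1 as 1 of the 4 and Nkx2-5 as 1 of the 5. Hopx, a homeodomain-only protein of cardiac progenitors, stood at 139, 147 and 124 CPM in Cre carriers, against 233 and 182 CPM in flox controls (log2 -0.60 ± 0.14, edgeR adjusted p = 0.154). Fhl2, a LIM protein of the sarcomere, and Kcne1, a potassium channel subunit, had log2 differences of -0.39 and -0.51 (edgeR adjusted p = 0.199 and 0.195). On the other side, Gja1, the gap junction protein connexin 43, stood at 612, 592 and 536 CPM against 281 and 403 CPM (log2 0.76 ± 0.18, edgeR adjusted p = 0.161). Hcn4, the pacemaker channel, stood at 58.0, 51.3 and 58.2 CPM against 31.7 and 44.2 CPM (log2 0.56 ± 0.16, edgeR adjusted p = 0.208). Isl1, a marker of the second heart field, stood at 6.75, 5.40 and 12.7 CPM against 2.17 and 3.07 CPM (log2 1.66 ± 0.40, edgeR adjusted p = 0.163). These 6 genes were picked from the list with their values known, and each missed the edgeR threshold. The groups did not overlap at any of the 6, which is no separate result given how they were picked. Of the 33, 8 lay above the flox controls without overlap and 5 below, against 16.4% and 17.8% of all genes. The natriuretic peptide gene Nppa was at 1280, 1480 and 1260 CPM in Cre carriers and 1560 and 1300 CPM in flox controls, and the ventricular light chain Myl2 was at 4380, 4790 and 3870 CPM against 4790 and 4010 CPM. Both overlapped.

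Lists of heart chambers and layers gave few calls. Among 13 atrial genes Kcnj3 and Angpt1 were called, both lower in Cre carriers, and the median was -0.07 (0.409% of all genes were called). Unadjusted p was under 0.05 for 1 higher and 4 lower members, against 5.66% and 10.0% of all genes. The atrial light chain Myl7 stood at 1930, 1870 and 1750 CPM in Cre carriers and 1480 and 1330 CPM in flox controls (log2 0.40, edgeR adjusted p = 0.27). Of 9 left ventricular, 9 right ventricular and outflow, 8 atrioventricular canal, 13 trabecular and 9 compact layer genes none was called, and the medians of these lists lay between -0.10 and 0.07. Sema3c, a guidance factor of the outflow tract, stood at 51.4, 49.2 and 66.1 CPM in Cre carriers and 117 and 92.4 CPM in flox controls (log2 -0.91 ± 0.16, edgeR adjusted p = 0.0834). Kcnd2, a channel of the transient outward current, had 3.37, 3.89 and 2.35 CPM against 7.32 and 6.79 CPM (log2 -1.14, edgeR adjusted p = 0.105). Among 32 cell cycle genes none was called and the median was 0.17, and Rrm2, a subunit of ribonucleotide reductase, stood at 203, 214 and 185 CPM in Cre carriers and 151 and 148 CPM in flox controls (log2 0.42, edgeR adjusted p = 0.204).

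**Figure D3:**
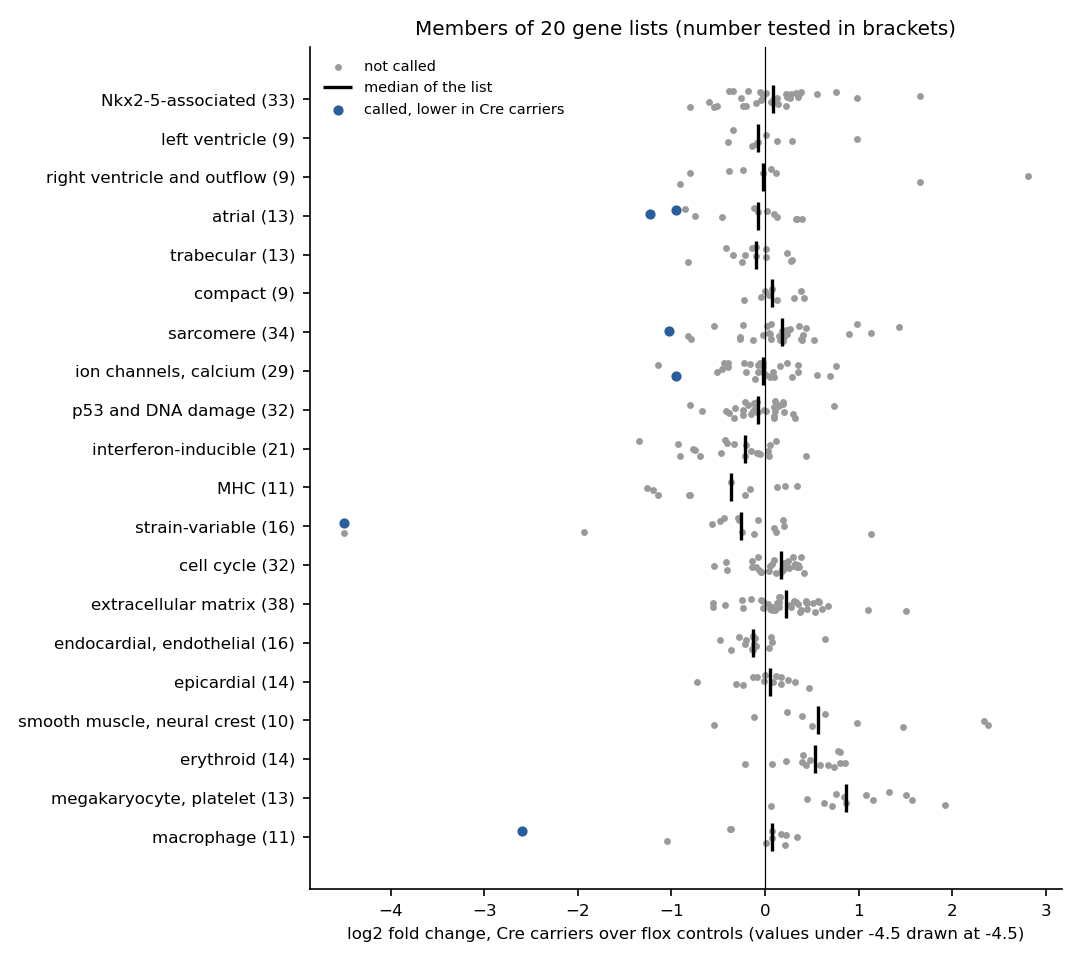
Each point is a tested member of 1 of 20 gene lists, placed by its log2 fold change, Cre carriers over flox controls, with the list's median as a bar and called members in blue. Medians lie between -0.36 for the MHC list and 0.87 for the megakaryocyte and platelet list, and the called members are Kcnj3 and Angpt1 (atrial), Tnnt1 (sarcomere), Kcnj3 again (ion channels), Trim12a (strain-variable) and Lyz2 (macrophage).

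Blood and smooth muscle markers lay above the median of all genes in Cre carriers, though edgeR called none. DESeq2 called 4 of 13 platelet-lineage, 0 of 14 erythroid and 5 of 10 smooth muscle and neural crest genes in either direction. Its share over all genes was 2.89%. The platelet-lineage list had a median log2 difference of 0.87 over 13 genes. At an unadjusted p under 0.05, 10 were higher and 0 lower, against 5.66% and 10.0% of all genes. Its summed level was 51.7 to 104 CPM in Cre carriers and 36.4 to 41.0 CPM in flox controls. Itga2b, a platelet integrin, stood at 13.4, 30.0 and 16.8 CPM in Cre carriers and 8.89 and 9.17 CPM in flox controls (log2 1.15, edgeR adjusted p = 0.214), with Cre carrier replicate 2 highest. The platelet chemokine gene Pf4 overlapped, at 7.49, 14.2 and 10.0 CPM against 7.61 and 4.95 CPM. Over 14 erythroid genes the median was 0.53, with a summed level of 4890 to 8890 CPM in Cre carriers and 4270 to 4670 CPM in flox controls. Hba-x, an embryonic globin, stood at 1100, 1100 and 1800 CPM against 639 and 960 CPM. Removing the erythroid genes before scaling left the same 56 calls.

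Over 10 smooth muscle and neural crest markers the median was 0.57, with a summed level of 2190 to 2600 CPM in Cre carriers and 1510 to 1720 CPM in flox controls. Myh11, the smooth muscle myosin, stood at 1.73, 2.06 and 3.35 CPM in Cre carriers and 0.523 and 0.384 CPM in flox controls (log2 2.38 ± 0.42, edgeR adjusted p = 0.0834). Sox10, a neural crest factor, stood at 2.94, 0.734 and 3.28 CPM against 0.402 and 0.499 CPM (log2 2.34, edgeR adjusted p = 0.217). Pax6, a gene of eye and brain from a separate neural list, stood at 1.18, 1.10 and 1.2 CPM against 0.201 and 0.230 CPM (log2 2.4, edgeR adjusted p = 0.0595). All 3 were picked with their values known. They lay above the flox controls in every Cre carrier at levels of few reads, between 5 and 87 counts. Of all genes 16.4% lay above in this way and 17.8% below. On the smooth muscle and neural crest list 5 of 10 lay above and 1 below. On the neural list 3 of 11 lay above and 1 below. The share of outflow tract and of attached tissue in each dissection is not stated. Of 10 cardiomyocyte markers none was called and the median was 0.12, and of 14 epicardial markers none was called and the median was 0.05. The part of these tissue differences in the calls was not tested.

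Lists of p53, interferon, MHC and strain-variable genes were read in the same way. Of 32 genes of the p53 and DNA damage response none was called, and the median was -0.08. At an unadjusted p under 0.05, 2 were higher and 3 lower, against 5.66% and 10.0% of all genes. Cdkn1a, the p53-induced inhibitor of the cell cycle, stood at 29.4, 24.8 and 29.1 CPM in Cre carriers and 26.5 and 24.9 CPM in flox controls (log2 0.11 ± 0.12, edgeR adjusted p = 0.631). The interferon-inducible list does not hold Samd9l, Aim2 or Trim12a, which were called. Of its 34 genes, 13 are absent from the deposited counts. None of the 21 tested was called, and their median was -0.21. Without overlap, 8 lay below the flox controls and 1 above (17.8% and 16.4% of all genes did so). Xaf1, an interferon-inducible gene of cell death, stood at 0.628, 0.954 and 0.964 CPM in Cre carriers and 2.13 and 2.22 CPM in flox controls (log2 -1.35, edgeR adjusted p = 0.124). Of 11 genes of the major histocompatibility complex (MHC) list none was called and the median was -0.36. B2m, the light chain of class I molecules, stood at 68.1, 61.8 and 73.3 CPM in Cre carriers and 95.7 and 78.3 CPM in flox controls (log2 -0.36, edgeR adjusted p = 0.269). H2-K1 had 7.96, 7.23 and 7.10 CPM against 8.37 and 17.6 CPM, and without flox control replicate 2 its log2 difference of -0.81 became -0.17. Of 16 genes whose expression is known to vary between mouse strains Trim12a was the 1 called, and the median was -0.26. At an unadjusted p under 0.05, 5 were lower and 0 higher, against 10.0% and 5.66% of all genes.

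Genes that were nearly off in one library and on in another were also counted, with at most 10 and at least 50 counts as limits, a count added after the values were seen. Trim12a and Npm3-ps1 were the 2 such genes that split the groups. Between single libraries on the autosomes, 3, 6 and 6 genes differed in this way among pairs of Cre carriers, 12 between the flox controls, and 9 to 27 between a Cre carrier and a flox control. Ifi204, an interferon-inducible gene, was off in flox control replicate 1 (0.282 CPM) and on in replicate 2 (8.55 CPM), and Cre carriers had 0.157, 0.147 and 0.386 CPM.

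Called genes were then placed against both engineered loci. Within 10 Mb of Hand1, 198 genes were tested and 2 were called (1.01%, against 0.409% of all genes), both lower in Cre carriers, a count too small to set the window apart. They were Hist3h2a, 1.12 Mb after Hand1 (58954685 to 58955192), and Pirt, 9.08 Mb after it (66911991 to 66928700), which stood at 13.9, 10.7 and 12.5 CPM in Cre carriers and 32.1 and 31.2 CPM in flox controls. Within 5 Mb 1 of 129 was called and within 20 Mb 2 of 397 (0.504%). Within 10 Mb of Nkx2-5, 331 genes were tested and 0 were called by edgeR, with 49 at an unadjusted p under 0.05 (14.8%, against 15.7% of all genes). DESeq2 called 5 of the 331, and 2.89% of all genes. Close to Nkx2-5 lie Crebrf, a regulator of the transcription factor CREB3, and Atp6v0e, a subunit of the proton pump. Crebrf, 0.06 Mb before Nkx2-5, stood at 16.3, 15 and 17.3 CPM in Cre carriers and 34.4 and 21.3 CPM in flox controls (log2 -0.78, edgeR adjusted p = 0.183). Atp6v0e, 0.14 Mb before it, stood at 45.7, 48.6 and 51.4 CPM against 82.2 and 49.9 CPM and overlapped.

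A run of zinc-finger genes 3.5 to 6 Mb before Nkx2-5 leaned to one side, a window picked after the values were seen. Of 25 genes tested there 24 had a negative log2 difference, and the median was -0.57. The 18 named Zfp had -0.79 to -0.32, against a median of -0.18 over the 321 Zfp genes elsewhere and 0.07 over the other 306 genes within 10 Mb of Nkx2-5. None was called, the lowest edgeR adjusted p was 0.154, and 3 were called by DESeq2. Zfp948 stood at 26.4, 21.9 and 29.8 CPM in Cre carriers and 43.9 and 37.4 CPM in flox controls (log2 -0.64, edgeR adjusted p = 0.154). Zfp760 stood at 28.3, 23.4 and 28 CPM against 52.5 and 34.1 CPM. The lean was largest in 1 library of each group. Relative to the mean of the 5 libraries, the median gene of the window lay at -0.51 in Cre carrier replicate 2 and at 0.64 in flox control replicate 1, and between -0.12 and 0.00 in the other 3. Without flox control replicate 1 the window's median was -0.18, and without flox control replicate 2 it was -0.85. It was -0.60, -0.41 and -0.71 without Cre carrier replicates 1, 2 and 3. The 321 Zfp genes elsewhere had their furthest medians in the same libraries, at -0.13 in Cre carrier replicate 2 and 0.18 in flox control replicate 1. A lean to this side was not confined to the window. Zfp genes 5.92 to 6.54 Mb after Nkx2-5, also picked after the values were seen, had -0.70 (Zfp81) to 0.05 (Zfp811). Of these Zfp811 alone was positive, and Zfp414, 6.79 Mb after Nkx2-5, was at 0.33. They are counted among the other 306 genes.

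**Figure D4:**
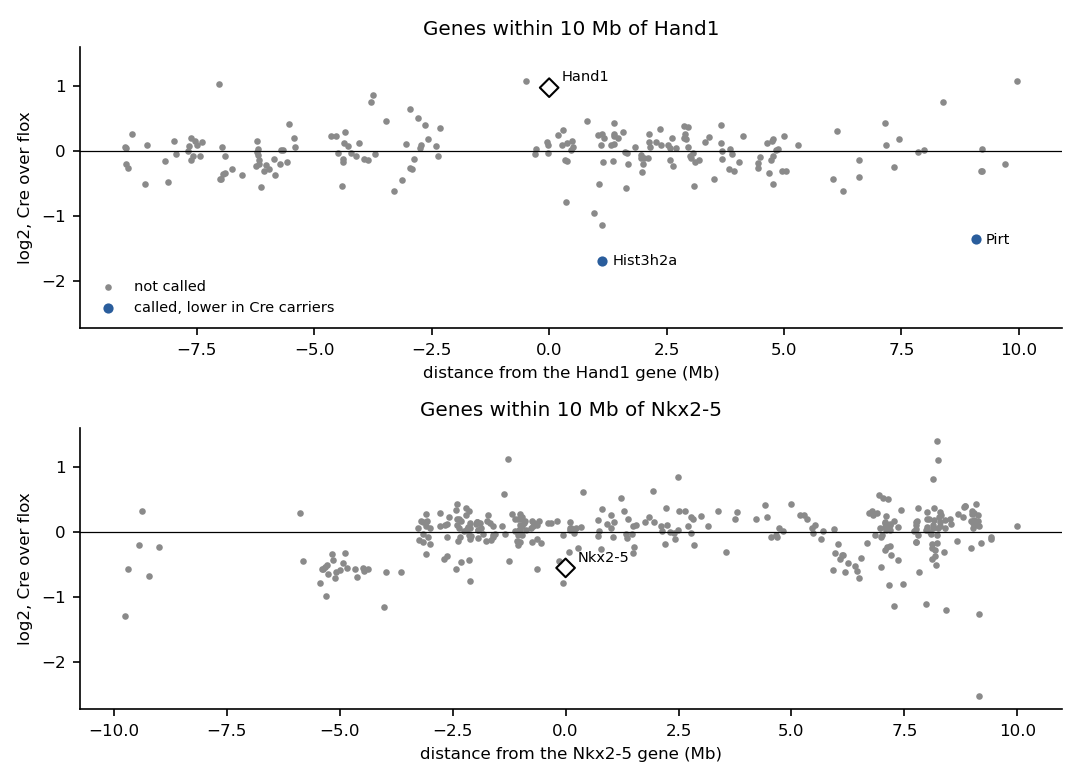
Log2 fold change, Cre carriers over flox controls, of each tested gene within 10 Mb of Hand1 (top) and Nkx2-5 (bottom), by distance from the gene in Mb, with the gene itself as an open diamond. Hist3h2a and Pirt, in blue, are the 2 called genes near Hand1, no gene is called near Nkx2-5, and the run of points at a median of -0.57 before Nkx2-5 is the zinc-finger window.

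The knockout libraries carry both alleles and were set beside the called genes as values, since all comparisons share these control libraries. Both knockout libraries lay nearer to the flox mean than to the Cre carrier mean at 24 of the 56 genes (42.9%), against 23.9% of all tested genes. Both lay nearer to the Cre carrier mean at 10 (17.9%), against 19.9% of all tested genes, and at 22 they were split. The knockout libraries share the Cre allele with the Cre carriers, and floxed Hand1 and, with flox control replicate 2, the identifier prefix NT with the flox controls, and the part of each was not tested. Knockout replicate 2 fell outside the range of the 5 controls at 11354 of 13681 genes and replicate 1 at 7159, so nearness to a group is a weak description. On a CPM scale set over all 7 libraries, Eno2 stood at 45.2 and 38.0 CPM in the knockout libraries. Hist3h2a stood at 38.2 and 54.0 CPM and Rpl14-ps1 at 23.9 and 68.3 CPM, also on the flox side. Genes of the other kind included Bmpr1b at 2.62 and 3.80 CPM, Rgs8 at 1.36 and 1.69 CPM, Tnnt1 at 58.8 and 69.0 CPM, Dio2 at 2.79 and 2.35 CPM and Myrip at 0.663 and 0.783 CPM. At these 5 genes both knockout libraries lay nearer to the Cre carriers. Angpt1 was split, at 54.9 CPM in knockout replicate 1 and 155 CPM in replicate 2.

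**Figure D5:**
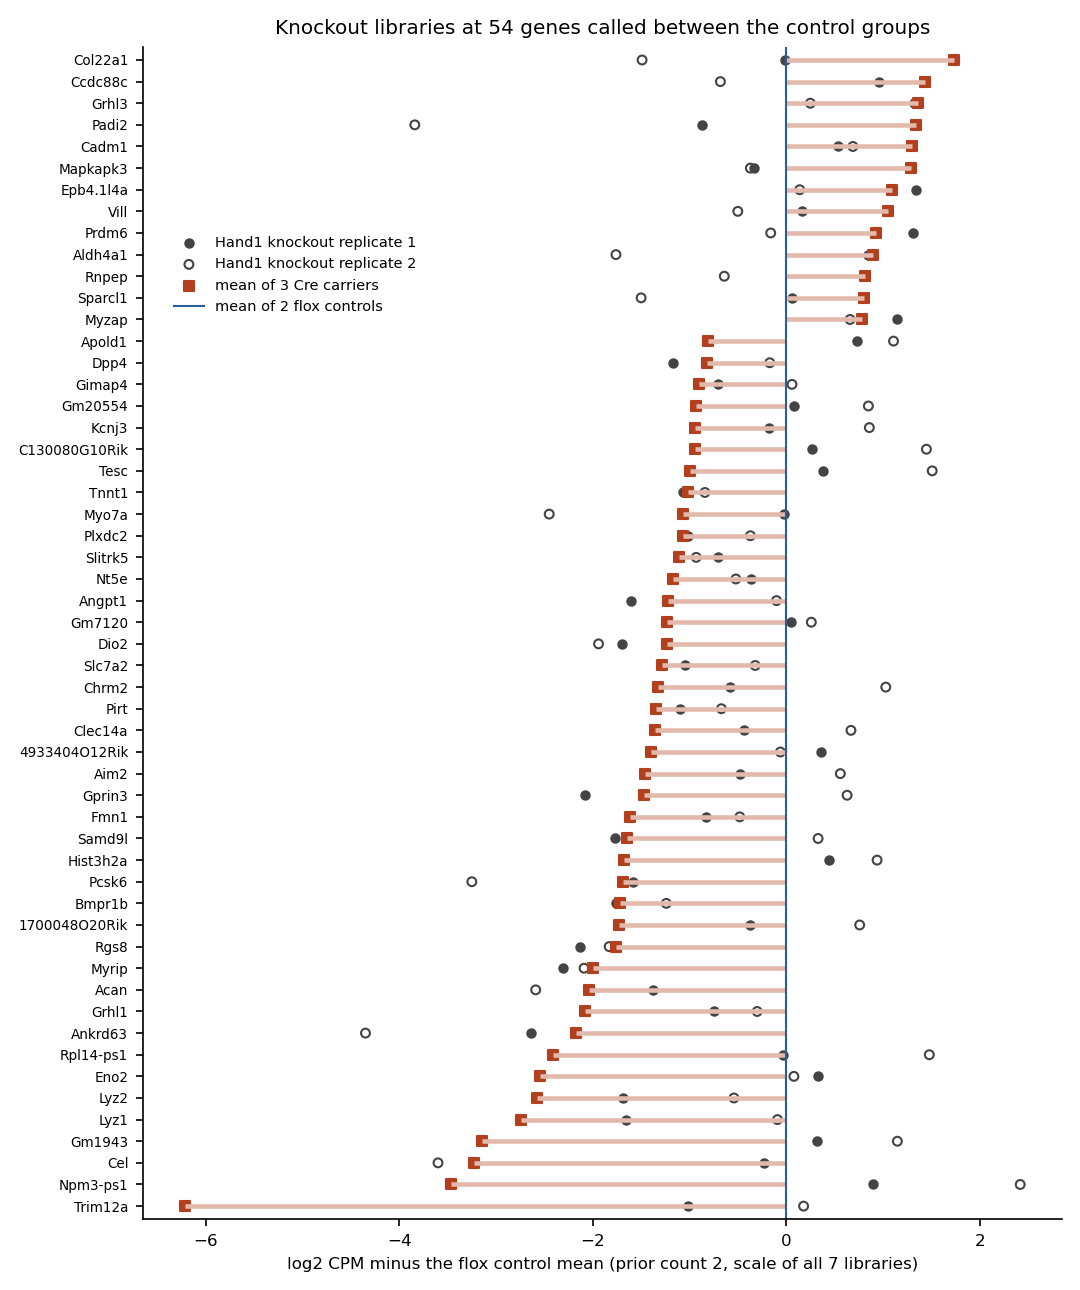
For 54 of the 56 called genes, the 2 Hand1 knockout libraries (circles) and the mean of the 3 Cre carriers (square) as log2 CPM minus the mean of the 2 flox controls (line at 0), with a prior count of 2 and the scale of all 7 libraries. Eno2 has both knockout libraries near the flox line (0.33 and 0.08) and Hist3h2a has them above it (0.44 and 0.94), and genes such as Bmpr1b, Rgs8 and Tnnt1 have them beside the Cre carriers.

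Genes that earlier results of these data named for Hand1 loss were read between the control groups, and their choice on the same libraries makes them no independent evidence. Of 9 genes lower in the knockout none was called here, with a median of 0.35. At an unadjusted p under 0.05, 4 were higher and 1 lower, against 5.66% and 10.0% of all genes. Mybpc1, a slow-type myosin-binding protein, stood at 20.7, 16.7 and 17.2 CPM in Cre carriers and 6.96 and 9.67 CPM in flox controls (log2 1.13 ± 0.18, edgeR adjusted p = 0.0673). Mab21l2, a regulator of development whose exon overlaps Lrba, stood at 26.8, 15.1 and 21.2 CPM against 6.16 and 9.44 CPM (log2 1.43 ± 0.28, edgeR adjusted p = 0.101). Tnc, the matrix protein tenascin C, stood at 197, 153 and 180 CPM against 54.0 and 110 CPM (log2 1.10 ± 0.28, edgeR adjusted p = 0.183), and its difference was 1.71 without flox control replicate 2. Psd, an exchange factor whose exons overlap Nfkb2, stood at 10.8, 9.69 and 15.6 CPM against 5.03 and 4.37 CPM (log2 1.35 ± 0.24, edgeR adjusted p = 0.0834). In these 4 genes and in Smoc1, a matrix protein gene (log2 0.35), every Cre carrier lay above both flox controls, as at 16.4% of all genes. Cbl, a ubiquitin ligase, lay below them without overlap, at 19.7, 38.3 and 35.0 CPM in Cre carriers and 54.3 and 41.4 CPM in flox controls (log2 -0.62, edgeR adjusted p = 0.315). Hipk2, Masp1 and Mmp28 overlapped. Of 10 genes higher in the knockout Apold1 was the 1 called, and it was lower in Cre carriers. The median of these 10 was -0.02, with 1 higher and 2 lower at an unadjusted p under 0.05. Besides Apold1 the lower gene was Stard10, a lipid transfer protein, at 12.4, 12.1 and 13.5 CPM in Cre carriers and 25.8 and 19.9 CPM in flox controls (log2 -0.85 ± 0.14, edgeR adjusted p = 0.0735). The higher gene was Lrrc3b, at 4.67, 4.92 and 4.36 CPM against 3.42 and 2.80 CPM (log2 0.58 ± 0.19, edgeR adjusted p = 0.251).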

How the data were processed

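Polyadenylated RNA of E11.5 mouse ventricles was sequenced. Build mm10 and the tools featureCounts, STAR 2.4.2a, edgeR and Subread 1.5.0 are listed, without roles, per the submitters' processing notes. Annotation, settings and strand use are not given in the sources used here. The authors deposited raw read counts per gene for 7 libraries, of which the 5 control libraries were tested, with total counts of 24343222 to 28152695. The deposited table holds 13701 genes, with a lowest summed count of 9 and no mitochondrial gene. Notes were removed from 46 gene names, and 19 of 20 names turned into dates were restored from coordinates.

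Groups came from the genotype labels, and replicate numbers follow deposit order. The test was edgeR 4.0.16 quasi-likelihood in R 4.3.3 (TMM scaling, filterByExpr, robust estimation, no covariate) on 13681 genes, with calls at adjusted p (Benjamini-Hochberg) under 0.05. Printed CPM use TMM factors of the 5 control libraries, or of all 7 for knockout values. log2 CPM used a prior count of 2. The fits were tested on simulated data.

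Named were Hand1, Nkx2-5, up to 15 called genes each way by log2 change (mean of at least 2 CPM, no predicted gene, no overlap), called genes within 10 Mb of either locus, list members by adjusted p or level, the genes of earlier knockout results, and genes off in one group and on in the other. Further genes, called and not called, were named outside this rule with their values known. The members, lists and rule were chosen with earlier results of these data known. Alternatives were RLE scaling, no scaling factors, DESeq2 1.42.0, limma-voom (limma 3.58.1), edgeR without robust estimation, edgeR's likelihood ratio test, other filters, all 7 libraries, embryo sex, gene length offsets, genes left out, and each library left out. The replicate numbers pair no libraries. Promoters came from RefSeq (GRCm38.p6). A few genes are not reported here.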

Additional observations from a re-analysis of the deposited data

How the results depend on the processing

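No paired analysis was possible because the labels carry no replicate numbers, and those used here only follow deposit order. The 56 calls (14 higher, 42 lower) became 395 (151 and 244) with DESeq2, 500 (164 and 336) with the likelihood ratio test, 345 (91 and 254) with embryo sex as a covariate, which leaves 2 residual degrees of freedom, and 0 with all 7 libraries. limma-voom called 9 higher genes. RLE scaling, no scaling factors, edgeR without robust estimation, 2 other filters, gene length offsets, and leaving out erythroid or sex-linked genes gave 49 to 63 calls. Of the 56, 40 were called in all 12 fits that keep the 5 libraries and add none. Leaving out 1 library gave 0 to 4122 calls, 0 to 1758 higher and 0 to 2364 lower, 0 to 52 near Hand1 and 0 to 96 near Nkx2-5. Near Hand1 there were 2 calls, with 4 under the likelihood ratio test, 0 with all 7 libraries, 1 with length offsets and 1 in a window of 5 Mb. Near Nkx2-5, with 331 genes tested, there were 0 calls, with 5 under DESeq2, 6 under the likelihood ratio test and 11 with embryo sex. Over all 13681 genes these 3 fits called 395, 500 and 345. Hand1 passed at log2 0.99 in DESeq2 and 0.98 in the likelihood ratio test, and Nkx2-5 at -0.54, -0.55 and, with embryo sex, -0.50. Leaving out 1 library put Hand1 at 0.76 to 1.24. Without flox control replicate 2 Hand1 passed at 1.24 and Nkx2-5 at -0.40, and without flox control replicate 1 Nkx2-5 passed at -0.68. Sign changes occurred in 7 named genes, none called. Hipk2 was at 0.01 with embryo sex, and Myl2 at 0.18 and Nppa at 0.04 with length offsets. Leaving out 1 library put Hipk2 at -0.19 to 0.18 (0.08 without flox control replicate 2), Masp1 at -0.14 to 0.10, Mmp28 at -0.16 to 0.48, Tnni2 at -0.58 to 0.14, Rxfp1 at -0.12 to 1.08, Nppa at -0.22 to 0.04 and Myl2 at -0.14 to 0.11 (0.06 without Cre carrier replicate 3). The causes were not tested. With 3 and 2 libraries, genes near 1 CPM rest on few counts, and a p above the threshold does not show equal levels.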
